A study of Mus musculus with 8 samples.

Results

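The 2-oxoglutarate-dependent dioxygenases are enzymes that use molecular oxygen, ferrous iron and 2-oxoglutarate (α-ketoglutarate, αKG) to oxidise a substrate, and that release succinate and carbon dioxide. Their transcripts were examined in tumor-educated macrophages (TEMs) that lacked or kept *Phgdh*, the gene of phosphoglycerate dehydrogenase. The 39 genes were chosen by enzyme class, as a list of symbols, and all 39 were among the 18635 genes of the deposited table. They comprise 16 histone demethylases, 3 TET enzymes, 4 oxygen sensors, 5 collagen hydroxylases, 6 nucleic acid demethylases and 5 other protein hydroxylases.

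RNA was sequenced from bone marrow-derived macrophages (BMDMs) of C57BL/6 mice kept for 24 h in AE17-TCM, which is medium taken from cultures of AE17, a mouse mesothelioma line. The 4 Phgdhfl/fl samples carry floxed *Phgdh* alleles without a recombinase and are called floxed TEMs here. The 4 Phgdhfl/fl Cx3cr1-Cre samples carry the same floxed alleles with the Cre recombinase expressed from 1 copy of the *Cx3cr1* locus, a gene of monocytes and macrophages, and are called Cre TEMs. Both genotypes were in AE17-TCM, so the data hold no sample without tumor medium and no Cre sample without floxed alleles, and the effects of Cre or of the lost *Cx3cr1* copy and of the loss of *Phgdh* cannot be told apart. The methods describe littermates from which marrow was taken at 6 to 8 weeks, and neither they nor the labels say whether samples with the same number share an origin.

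The family reads metabolism and oxygen into chromatin, RNA and protein. Histone demethylases of the Jumonji class and TET enzymes remove methyl marks from histones and DNA, EGLN prolyl hydroxylases mark the hypoxia-inducible factor HIF-1α for destruction, and collagen hydroxylases modify newly made collagen in the endoplasmic reticulum. Succinate, fumarate and 2-hydroxyglutarate compete with 2-oxoglutarate at these enzymes. The serine synthesis pathway, of which PHGDH is the first enzyme, yields 2-oxoglutarate at its PSAT1 step. In macrophages the Polycomb-mark demethylase gene *Kdm6b* is known as an inducible gene of activation, and the genes *Egln3*, *P4ha1*, *P4ha2*, *Plod2* and *Kdm3a* are known as hypoxia-responsive.

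The samples matched their labels. The normalized counts of *Phgdh*, that is reads divided by the size factor of the sample, were 119, 129, 117 and 105 in the floxed TEMs and 32.6, 35.3, 14.2 and 26.3 in the Cre TEMs (log2 fold change -2.15 ± 0.210 SE, adjusted p = 5.09e-08, limma on log2(normalized count + 1) with Benjamini-Hochberg adjustment over all tested genes, as for each adjusted p below). Between 38219563 and 47027420 reads lay on genes per sample. All 7 macrophage markers were abundant, with a summed level of 986516 to 1075524 in the floxed TEMs and 973612 to 1048997 in the Cre TEMs, and *Fcgr1* (-0.40), *Itgam* (-0.19) and *Adgre1* (-0.08) were lower. The summed levels of the 4 fibroblast markers in the table reached at most 49.6. Of the 6 mesothelial or epithelial markers 1 was in the table, at no more than 5.08, and the 4 T cell and 3 mast cell or basophil markers were not in it. The 2 dendritic cell markers in the table summed to at most 38.6. Of the neutrophil markers only *S100a8* was in the table (466.7 to 574.7 and 575.7 to 631.3), and of the 4 B cell markers *Cd79b* carried nearly all of a sum of 197.1 to 252.8 in the floxed TEMs and 130.5 to 166.7 in the Cre TEMs. The part of these cells in the results below was not tested. Transcripts of the Y-linked genes *Ddx3y*, *Eif2s3y*, *Kdm5d* and *Uty* were abundant in all 8 samples, and *Xist* had 0 to 8.59 in the floxed TEMs and 22.4 to 43.6 in the Cre TEMs.

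Per length, most of the family was expressed at moderate levels. As FPKM, a level scaled to exon length and to the reads of the sample, the median of the 38 members that passed the filter was 6.22, against 4.38 over all tested genes, and 25 of the 38 lay above the latter. *Tet1*, whose product starts DNA demethylation in pluripotent cells, was the member below the filter of a mean normalized count of 10, with 1.86, 0, 0 and 2.86 in the floxed TEMs and 2.25, 1.04, 3.05 and 0.973 in the Cre TEMs and an exact two-sided permutation p of 0.429. *P4ha1*, the catalytic subunit of collagen prolyl hydroxylase, was the most abundant member at 61.7 ± 0.973 FPKM in the floxed TEMs (mean ± SD, n = 4). It was followed by *Plod1* at 33.4 ± 0.482, the RNA demethylase gene *Alkbh5* at 29.4 ± 0.538 and *Plod3* at 21.4 ± 0.459. The collagen genes looked at were close to absent. *Col1a1*, *Col3a1*, *Col4a1*, *Col4a2*, *Col5a1*, *Col6a1* and *Col14a1* fell below the filter and *Col1a2* had at most 26.3 normalized counts. Other collagen genes were not examined. Macrophage proteins with a collagen-like stretch were abundant instead, with *C1qb* between 46174 and 56678 normalized counts.

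Among the oxygen sensors, *Egln2* at 17.8 ± 0.538 FPKM and *Egln1* at 17.4 ± 0.41 differed by less than their SDs, *Egln3* followed at 10.7 ± 0.394 and *Hif1an* at 6.29 ± 0.206. The most abundant histone demethylase gene was *Kdm7a* at 14.4 ± 0.488, next to *Jmjd1c* at 13.9 ± 0.868, which lay within its spread. *Tet3* at 6.01 ± 0.312 stood above *Tet2* at 3.36 ± 0.22. *Jmjd8* led the other protein hydroxylases at 8.72 ± 0.329, and *Kdm8* closed the order at 0.88 ± 0.151.

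**Figure D1:**
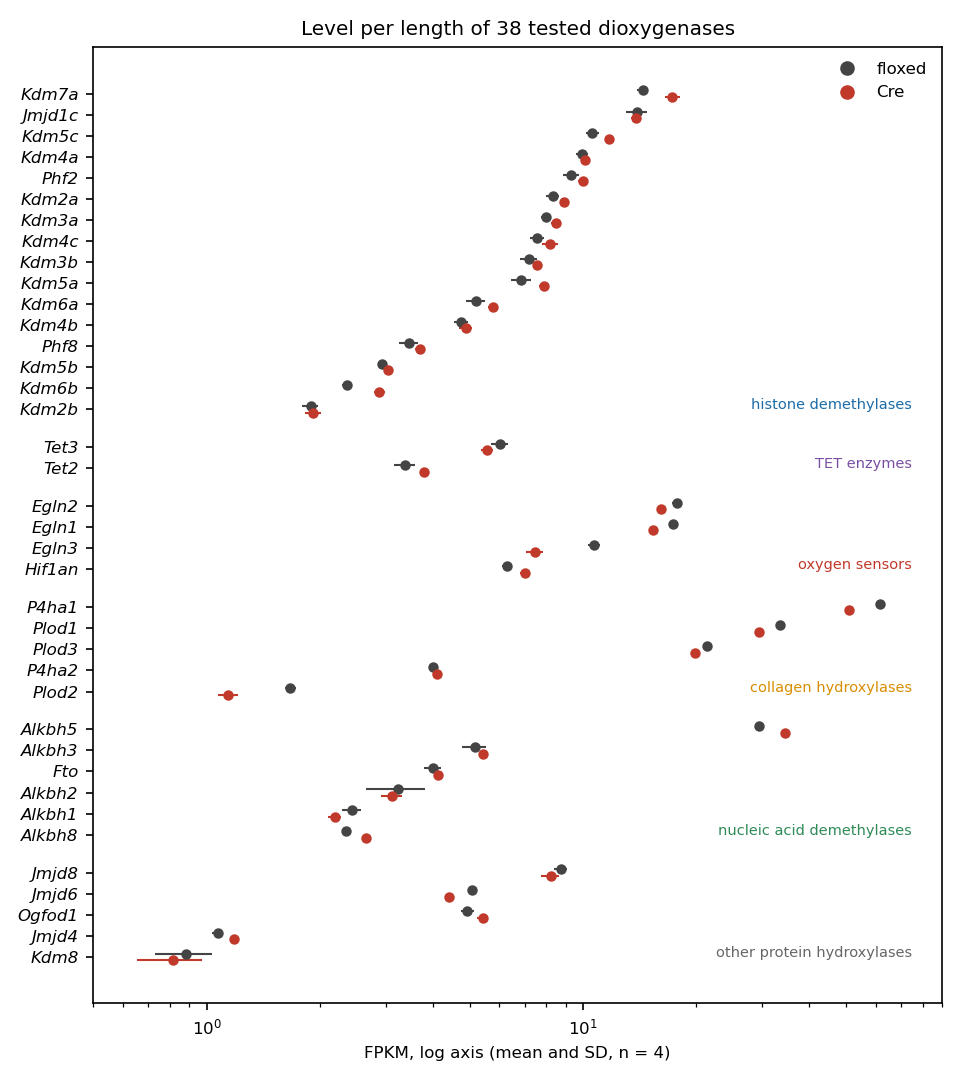
FPKM on a log axis (mean and SD, n = 4) of the 38 tested dioxygenases in floxed TEMs (grey) and Cre TEMs (red), grouped by role. The genotypes lie close to each other over a range of levels that runs from below 1 for *Kdm8* to above 50 for *P4ha1*.

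The comparison of the genotypes asks whether macrophages without PHGDH, a source of 2-oxoglutarate, change the transcripts of the enzymes that consume it. Of the 38 tested members 23 had an adjusted p under 0.05, 13 of them higher and 10 lower in the Cre TEMs. This has to be read against a background of 41.0% called among all 13629 tested genes, 20.8% higher and 20.3% lower, since a large part of the transcriptome differed by small amounts between the genotypes. The members are abundant, and among genes averaging 500 normalized counts or more the background was 53.4%, beside 22 of 34 members (64.7%). The median log2 fold change of the members was 0.03, against -0.0018 over all tested genes, and the median absolute log2 fold change was 0.126 against 0.123. The genotypes stood apart without overlap for 18 of 38 members, against a background of 36.7%. No member passed the cutoff of the study's methods, an absolute log2 fold change over 1.5, which 0.404% of all tested genes passed, and 5 passed 0.25 (background 14.2%), namely *Plod2*, *Egln3*, *P4ha1*, *Kdm6b* and *Kdm7a*. In bulk RNA, fewer cells of a kind and less RNA per cell cannot be told apart.

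The counts were uneven between the roles, which hold few genes each, beside backgrounds of 20.8% higher and 20.3% lower over all tested genes. The histone demethylases counted 8 higher and 0 lower of 16, the oxygen sensors 1 higher and 3 lower of 4, the collagen hydroxylases 0 higher and 4 lower of 5, and the TET enzymes 1 of each among the 2 tested. The nucleic acid demethylases counted 2 higher and 1 lower of 6, and the other protein hydroxylases 1 of each among 5. The median log2 fold changes were 0.09 for the histone demethylases, -0.18 for the oxygen sensors and -0.20 for the collagen hydroxylases. Exon length moved with these directions. In the longest of 5 length bins of equal size, 41.8% of all genes were called higher and 13.1% lower. When the trend of each sample on exon length and GC content was taken off, an alternative chosen after seeing the data, 5 members were higher and 12 lower, in place of 13 and 10. The 5 were *Kdm5c*, *Kdm6b*, *Kdm7a*, *Hif1an* and *Alkbh5*. Over all tested genes, the share of higher among the calls went from 50.6% to 39.2% in the same step.

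**Figure D2:**
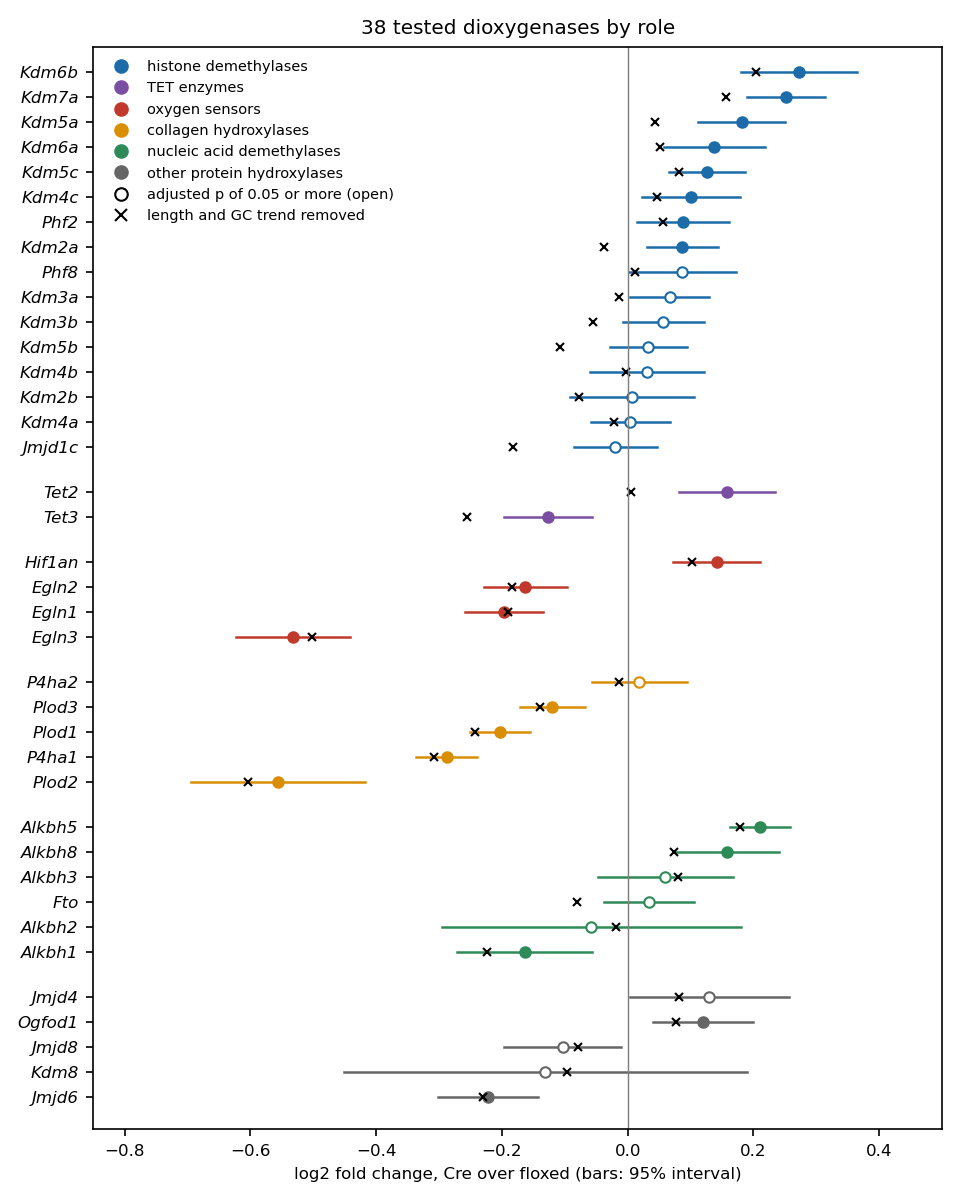
Log2 fold change of each tested member, Cre TEMs over floxed TEMs, with its 95% interval from the limma fit, by role, filled where the adjusted p is under 0.05. Crosses mark the value after the length and GC trend was taken off, which lies to the left of the circle for most histone demethylases and close to it for the oxygen sensors and collagen hydroxylases.

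The collagen hydroxylases held both the most abundant member and the largest change. *Plod2*, the lysyl hydroxylase of collagen telopeptides (chr9:92542223-92608428 in mm10), had normalized counts of 384, 387, 377 and 409 in the floxed TEMs and 272, 279.6, 242 and 264 in the Cre TEMs. Each Cre sample lay below each floxed sample, and the mean was 32% lower (log2 fold change -0.56 ± 0.067 SE, adjusted p = 8.45e-07). *Cx3cr1*, the locus that carries Cre, lies 27.4 Mb away on the same chromosome, and a part of sequence linked to it was not tested. *P4ha1* (chr10:59323296-59373304) had 10792, 11128, 11178 and 10913 in the floxed TEMs and 9144, 8838, 9234 and 8828 in the Cre TEMs. The groups again stood apart, by 18.1% of the floxed mean (log2 fold change -0.29 ± 0.023 SE, adjusted p = 3.06e-09).

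*Plod1*, the lysyl hydroxylase of the collagen helix, had 9677, 9617, 9916 and 9914 in the floxed TEMs and 8593, 8288, 8643 and 8459 in the Cre TEMs (log2 fold change -0.20 ± 0.023 SE, adjusted p = 3.68e-07). *Plod3*, which also adds sugars to hydroxylysine, was lower by 8% (log2 fold change -0.12 ± 0.025 SE, adjusted p = 0.000591), and 11.7% of its exon bases lie opposite *Znhit1*. *P4ha2*, the other prolyl hydroxylase subunit of the set, had a mean of 1081 ± 23.6 against 1094 ± 8.66, and its interval ran from -0.06 to 0.09 on the log2 scale (0.726 as adjusted p). All 4 called collagen hydroxylases stayed called in the same direction in each of the 18 other fits. *P4hb*, the shared second subunit of the prolyl hydroxylase, did not pass (-0.02, adjusted p = 0.432), whereas the endoplasmic reticulum isomerase gene *Ppib* was lower (-0.13, adjusted p = 0.000462).

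Among the other 8 tested genes of the fixed list of collagens and partners, 3 were higher and 3 lower, beside the backgrounds of 20.8% and 20.3%. *C1qa*, *C1qb* and *C1qc*, the collagen-like chains of complement C1q, were lower (-0.29, -0.22 and -0.21), and the collagen-like scavenger receptor genes *Marco* and *Msr1* were higher (0.47 and 0.15), as was the collagen glycosyltransferase gene *Colgalt1* (0.06), which lost its call in 7 of 18 alternatives. The genes with a collagen-like stretch thus moved in both directions while all called collagen hydroxylases were lower.

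The oxygen sensors split by kind of hydroxylase. All 3 EGLN prolyl hydroxylase genes were lower and *Hif1an*, the asparaginyl hydroxylase that blocks the transactivation domain of HIF-1α, was higher. The groups did not overlap for any of the 4, beside a background of 36.7% of all tested genes. *Egln3* (chr12:54178981-54203860) had normalized counts of 1178, 1229.7, 1292 and 1221 in the floxed TEMs and 830.4, 800.2, 877 and 895 in the Cre TEMs. Every Cre sample was below every floxed sample, and the mean was 30.9% lower (log2 fold change -0.53 ± 0.044 SE, adjusted p = 4.03e-09). *Egln1*, the main oxygen sensor in most cells (chr8:124908587-124949324), had 2739, 2733, 2766 and 2624 in the floxed TEMs and 2372, 2328, 2466 and 2312 in the Cre TEMs (log2 fold change -0.20 ± 0.030 SE, adjusted p = 1.96e-05). *Egln2* had 2149, 2255, 2152 and 2106 in the floxed TEMs and 1939, 1954, 1973 and 1869 in the Cre TEMs (log2 fold change -0.16 ± 0.032 SE, adjusted p = 0.000276). The 2 genes fell by similar shares, 12.7% and 10.7%.

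*Hif1an* had 1879.8, 1745, 1776 and 1798 in the floxed TEMs and 2002, 2011, 1899 and 2031 in the Cre TEMs, which put it 10.3% higher (log2 fold change 0.14 ± 0.034 SE, adjusted p = 0.00176). The ratio of the normalized counts of *Egln3* and *Egln1* was 0.453 ± 0.017 in the floxed TEMs and 0.359 ± 0.019 in the Cre TEMs, and that of *Hif1an* and *Egln1* 0.663 ± 0.026 in the floxed TEMs and 0.839 ± 0.048 in the Cre TEMs. Both ratios stood apart between the genotypes, while that of *Egln2* and *Egln1* overlapped at 0.798 ± 0.021 in the floxed TEMs and 0.816 ± 0.017 in the Cre TEMs. These ratios, and those given further on, belong to 8 that were chosen after the values were seen and have no test. Of those not given, *Kdm6b* to *Kdm6a* overlapped, at 0.378 ± 0.017 in the floxed TEMs and 0.415 ± 0.022 in the Cre TEMs. The ratios of *P4ha1* to *P4ha2* and of *Plod2* to *Plod1* stood apart. All 4 oxygen sensors kept direction and call in each of the 18 other fits.

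**Figure D3:**
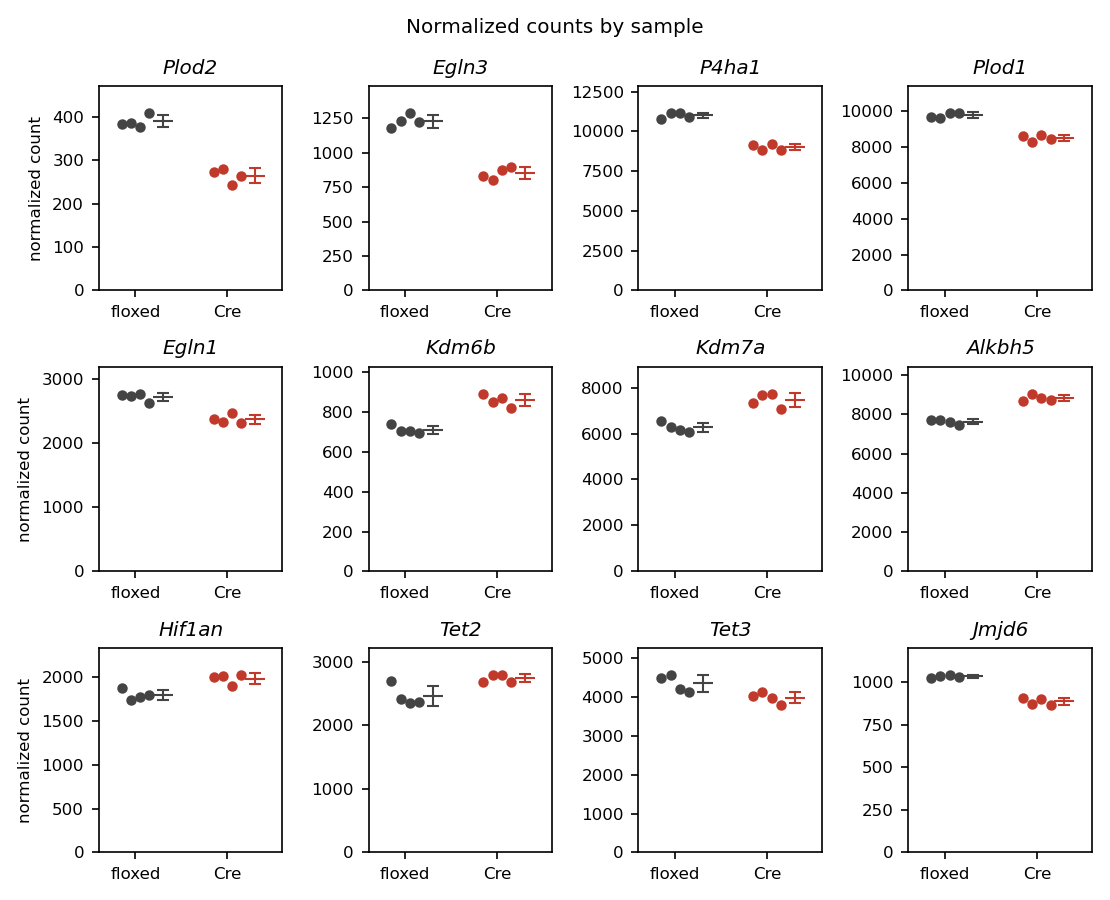
Normalized counts of 12 members in each of the 4 floxed (grey) and 4 Cre (red) samples, in the order of the replicate numbers, with mean and SD beside them and axes that start at 0. *Plod2* and *Egln3* show the widest gap between the genotypes, while the gaps for *Tet2* and *Tet3* are narrow and floxed replicate 1 reaches the Cre samples for *Tet2*.

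Promoters are shown for members of these groups because hypoxia-inducible factors bind a short core motif, ACGTG or GCGTG. It was searched on both strands in the 300 bases from 250 before to 50 after each RefSeq start (build GRCm38.p6, the assembly of mm10), and CACGT and CACGC are its reverse complements. Of the 39 members 33 had an entry (none for *Kdm2a*, *Kdm3b*, *Kdm4b*, *Kdm5a*, *Kdm6b* and *Plod2*), and 23 of the 33 (69.7%) held the motif, against 46.7% of 27025 genes. These 27025 include genes that were not tested here, and the share among tested genes alone was not computed. It was present for 7 of 9 members called lower, 6 of 10 called higher and 10 of 13 not called, and for 18 of 19 genes of the hypoxia list. A match describes the letters and is not a binding site. The 250 bases before the start follow 5′ to 3′ on the strand of the gene, with matches in capitals, for both members of these groups that changed most among those with an entry, for *Egln1*, and for *P4ha2* as the relative that was not called.
*Egln3*, chr12:54203875-54204124, minus strand: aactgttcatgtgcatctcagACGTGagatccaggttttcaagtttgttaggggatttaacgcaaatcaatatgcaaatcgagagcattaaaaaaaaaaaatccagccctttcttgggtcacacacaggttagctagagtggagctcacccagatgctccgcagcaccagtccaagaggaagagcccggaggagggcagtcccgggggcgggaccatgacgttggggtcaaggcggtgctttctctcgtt
*Egln1*, chr8:124949255-124949504, minus strand: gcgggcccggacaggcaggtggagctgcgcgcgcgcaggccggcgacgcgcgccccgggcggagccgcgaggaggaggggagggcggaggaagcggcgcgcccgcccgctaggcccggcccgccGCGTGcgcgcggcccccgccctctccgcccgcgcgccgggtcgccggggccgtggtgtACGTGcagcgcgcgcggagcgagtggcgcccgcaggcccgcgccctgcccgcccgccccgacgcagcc
*P4ha1*, chr10:59323046-59323295, plus strand: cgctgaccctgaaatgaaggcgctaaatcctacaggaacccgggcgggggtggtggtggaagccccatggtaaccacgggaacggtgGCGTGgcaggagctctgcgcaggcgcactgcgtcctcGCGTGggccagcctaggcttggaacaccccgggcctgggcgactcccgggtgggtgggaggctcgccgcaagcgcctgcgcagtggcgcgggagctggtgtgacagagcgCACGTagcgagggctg
*P4ha2*, chr11:54100674-54100923, plus strand: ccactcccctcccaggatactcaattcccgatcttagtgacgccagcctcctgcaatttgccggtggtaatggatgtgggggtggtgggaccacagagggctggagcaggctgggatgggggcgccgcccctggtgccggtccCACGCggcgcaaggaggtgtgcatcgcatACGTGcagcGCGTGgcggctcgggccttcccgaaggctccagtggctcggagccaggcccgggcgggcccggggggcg
*Egln3* held 1 match, *Egln1* 2, and *P4ha1* and *P4ha2* 3 each in these bases. In the 300 bases searched, *P4ha1* held 3 and *P4ha2*, which was not called, held 4.

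The hypoxia list shows what genes of the same pathway did. Of its 20 genes tested here 9 were lower and 2 higher, with a median log2 fold change of -0.09. Over all tested genes 20.3% were lower and 20.8% higher. The lowest of these were the vasodilator peptide gene *Adm* (-0.62, adjusted p = 2.01e-05), *Ankrd37* (-0.54, adjusted p = 2.12e-07) and the mitophagy gene *Bnip3* (-0.32, adjusted p = 3.79e-07). *Ldha*, which makes lactate, had 37561, 38911, 38838 and 38836 in the floxed TEMs and 31315, 31005, 31846 and 31249 in the Cre TEMs and was 18.6% lower (log2 fold change -0.30 ± 0.021 SE, adjusted p = 3.77e-10). *Pfkfb3*, a driver of glycolytic flux, was higher (0.25, adjusted p = 3.71e-08), and so was *Ero1a*, which forms disulfide bonds in the endoplasmic reticulum (0.14, adjusted p = 0.000424). *Vegfa* (-0.05, adjusted p = 0.0852) and *Car9* (-0.03, adjusted p = 0.763) did not pass. In limma without the mean-variance trend 8 genes of this list were lower and 4 higher.

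Of the 4 hypoxia factors, *Hif1a* itself was higher (0.14, adjusted p = 0.000259), as was its partner gene *Arnt* (0.08, adjusted p = 0.0239), which lost its call without the length and GC trend (adjusted p = 0.772), in limma without the mean-variance trend, and on leaving out floxed replicate 3 or 4 or Cre replicate 2 or 3. In each of these fits 1 of the 4 was called. *Epas1* (0.17, adjusted p = 0.127) and *Vhl* (-0.04, adjusted p = 0.492), whose product targets hydroxylated HIF-α, did not pass. Within the dioxygenases, the genes named above as hypoxia-responsive, which are not a full list of such genes, were not uniform. *Egln3*, *Plod2* and *P4ha1* were lower while *P4ha2* and *Kdm3a* (0.07, adjusted p = 0.084) were not called.

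**Figure D4:**
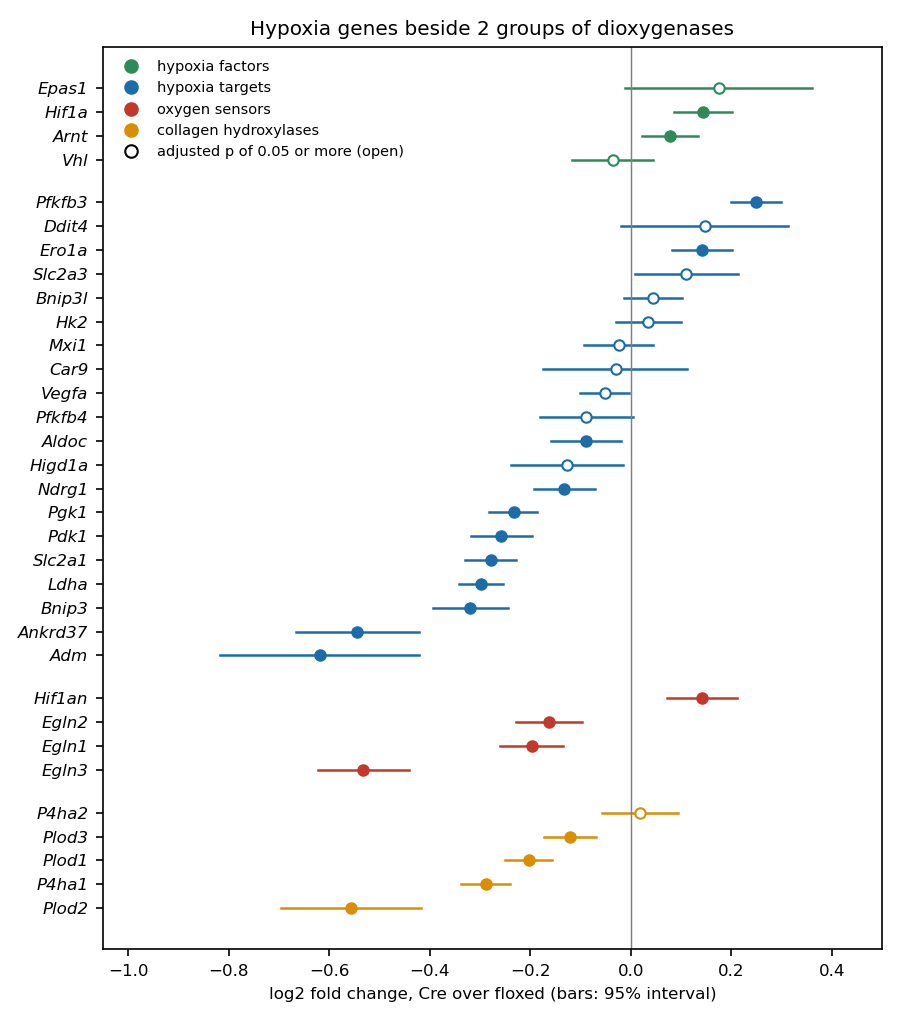
Log2 fold change, Cre TEMs over floxed TEMs, with 95% intervals for the 4 hypoxia factors, the 20 hypoxia targets tested here, the oxygen sensors and the collagen hydroxylases, filled where the adjusted p is under 0.05. *Egln3* and *Plod2* lie in the range of *Adm* and *Ankrd37*, and *Pfkfb3* and *Ero1a* lie on the other side of 0.

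The 16 histone demethylases contained no gene called lower in the fit of all 8 samples without the length and GC step. With that trend taken off, 3 were higher and 2 lower, the latter being *Jmjd1c* and *Kdm5b*. *Kdm6b* (chr11:69398508-69413675), which removes the Polycomb mark from histone tails, had normalized counts of 741, 705, 705 and 694 in the floxed TEMs and 892, 851, 872 and 822 in the Cre TEMs. The groups did not overlap, and the mean was 20.8% higher (log2 fold change 0.27 ± 0.044 SE, adjusted p = 3.57e-05). Its X-linked relative *Kdm6a* had 1977, 1973, 1850.3 and 1746 in the floxed TEMs and 2085, 2129, 1988 and 2094 in the Cre TEMs (log2 fold change 0.14 ± 0.038 SE, adjusted p = 0.00636), and this call was lost without the length and GC trend (adjusted p = 0.266) and in limma without the mean-variance trend. *Kdm7a* (chr6:39136623-39206789), a demethylase of repressive histone marks with a PHD finger, had 6547, 6263, 6167 and 6076 in the floxed TEMs and 7349.5, 7697, 7734 and 7068 in the Cre TEMs (log2 fold change 0.25 ± 0.030 SE, adjusted p = 7.37e-07). Here too each Cre sample exceeded each floxed sample.

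The Kdm5 genes, whose products erase the methyl mark of active promoters, differed among themselves. *Kdm5a* had 4529, 4241, 4103 and 3965 in the floxed TEMs and 4641, 4947, 4752 and 4739 in the Cre TEMs (log2 fold change 0.18 ± 0.034 SE, adjusted p = 0.000163), with floxed replicate 1 the nearest to the Cre samples. *Kdm5c* had 3444, 3277, 3179 and 3167 in the floxed TEMs and 3539, 3591, 3560.2 and 3559 in the Cre TEMs (log2 fold change 0.13 ± 0.029 SE, adjusted p = 0.00137). *Kdm5b* had a mean of 2103 ± 36 against 2152 ± 28.8, with an interval of -0.03 to 0.09 on the log2 scale. Without the length and GC trend, *Kdm5c* kept its call (0.08, adjusted p = 0.0155), *Kdm5a* lost it (0.04, adjusted p = 0.201), and *Kdm5b* turned lower (-0.11, adjusted p = 0.00397).

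Of the remaining histone demethylases, *Kdm4c* (0.10, adjusted p = 0.0377), *Phf2* (0.09, adjusted p = 0.0488) and *Kdm2a* (0.09, adjusted p = 0.0146) were called close to the threshold and lost the call without the length and GC trend. All 3 also lost it in limma without the mean-variance trend and with quantile normalization. *Kdm4c* lost it as well without floxed replicate 1 or 4 or Cre replicate 2 or 3, *Kdm2a* without floxed replicate 4, and *Phf2* in 12 of 18 alternatives in all. Without floxed replicate 4 the 8 higher calls of the histone demethylases became 5. Not called were *Phf8* (0.09), *Kdm3a* (0.07), *Kdm3b* (0.06), *Kdm4b* (0.03), *Kdm2b* (0.01), *Kdm4a* (0.00) and *Jmjd1c* (-0.02), given as log2 fold changes. The intervals of *Kdm4a* and *Jmjd1c*, -0.06 to 0.07 and -0.09 to 0.05, allow at most small changes in this fit, although *Jmjd1c* became lower without the length and GC trend (-0.18, adjusted p = 4.09e-07). *Kdm3b* shares 24.6% of its exon bases with a gene on the opposite strand, so its value is uncertain, as the strand setting of the counting is not given in the sources used here.

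The genes that write the marks were called higher more often than lower. Of 24 tested writers of histone and DNA methylation 12 were higher and 3 lower, beside the same backgrounds of 20.8% and 20.3%. The highest were *Kmt2a* (0.47, adjusted p = 3.49e-08), *Kmt2c* (0.31, adjusted p = 9.37e-05) and *Setd2* (0.24, adjusted p = 3.83e-06), all coding for long histone methyltransferases, and the lowest were *Nsd2* (-0.23, adjusted p = 8.39e-06), *Eed* (-0.16, adjusted p = 0.000271) and *Suv39h1* (-0.12, adjusted p = 0.0325). *Kmt2a* had 3367, 2789.7, 2843 and 2768 in the floxed TEMs and 4089.9, 4087, 3911 and 4179 in the Cre TEMs, and floxed replicate 1 was the highest floxed sample. Without the length and GC trend, 6 writers were higher and 5 lower. *Suv39h1* lost its call in 7 of 18 alternatives. The flavin-dependent demethylase genes *Kdm1a* (-0.04, adjusted p = 0.231) and *Kdm1b* (0.07, adjusted p = 0.305), which need no 2-oxoglutarate, did not pass.

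The 2 expressed TET genes went in opposite directions. *Tet2*, a gene of DNA demethylation that restrains inflammation in myeloid cells, had 2691, 2414, 2356 and 2372 in the floxed TEMs and 2684, 2788, 2799 and 2685 in the Cre TEMs (log2 fold change 0.16 ± 0.037 SE, adjusted p = 0.00157). Floxed replicate 1 lay inside the range of the Cre samples, and the other floxed samples lay below it. *Tet3* had 4492, 4571, 4199 and 4120.5 in the floxed TEMs and 4028, 4129, 3962 and 3801 in the Cre TEMs (log2 fold change -0.13 ± 0.033 SE, adjusted p = 0.00441), and here 1 Cre sample lay above the lowest floxed sample. The ratio of *Tet2* to *Tet3* was 0.566 ± 0.03 in the floxed TEMs and 0.689 ± 0.021 in the Cre TEMs, and its groups did not overlap. Both genes have long exons (16870 and 16695 bases). Without the length and GC trend, *Tet2* was no longer called (0.01, adjusted p = 0.917) and *Tet3* was further down (-0.26, adjusted p = 2.91e-07). *Tet3* lost its call in limma without the mean-variance trend (adjusted p = 0.0585). Of the DNA methyltransferase genes, *Dnmt3a* was higher (0.24, adjusted p = 1.72e-07).

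The nucleic acid demethylases were led by *Alkbh5*, an eraser of the RNA mark N6-methyladenosine (m6A). *Alkbh5* had 7736, 7703, 7617 and 7445 in the floxed TEMs and 8692, 9057, 8818 and 8739 in the Cre TEMs. All Cre samples exceeded all floxed samples, by 15.8% in the mean (log2 fold change 0.21 ± 0.023 SE, adjusted p = 2.62e-07). *Fto*, the other m6A eraser, had 2347, 2153, 2150.1 and 2360.3 in the floxed TEMs and 2302, 2293, 2275 and 2349 in the Cre TEMs (log2 fold change 0.03 ± 0.034 SE, adjusted p = 0.452), with overlapping groups and an interval of -0.04 to 0.11. The ratio of *Alkbh5* to *Fto* was 3.39 ± 0.2 in the floxed TEMs and 3.83 ± 0.1 in the Cre TEMs, again without overlap.

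Of 12 tested m6A writers and readers 4 were higher and 3 lower, beside the backgrounds of 20.8% and 20.3%. The highest were *Ythdc2* (0.33, adjusted p = 1.42e-05), *Rbm15* (0.23, adjusted p = 0.000743) and *Virma* (0.12, adjusted p = 0.00353), and the lower ones were *Mettl3*, the catalytic writer (-0.13, adjusted p = 0.0442), *Ythdf2* (-0.09, adjusted p = 0.0131) and *Wtap* (-0.07, adjusted p = 0.0378). *Mettl3* lost its call in 12 of 18 alternatives and *Wtap* in 9, and on leaving out floxed replicate 2 or 3 or Cre replicate 2 or 3 the lower calls were 1 in place of 3. Without the length and GC trend 2 of these genes were higher and 6 lower, and *Virma* was no longer called. *Alkbh8*, which modifies the wobble uridine of transfer RNA, had 922, 879, 883 and 875 in the floxed TEMs and 983, 1024, 993 and 969.6 in the Cre TEMs (log2 fold change 0.16 ± 0.040 SE, adjusted p = 0.00284), a call lost without the length and GC trend (adjusted p = 0.135). *Alkbh1* was lower (log2 fold change -0.16 ± 0.052 SE, adjusted p = 0.0145), and Cre replicate 2 lay above floxed replicate 2. The DNA repair genes *Alkbh2* (-0.06, adjusted p = 0.724) and *Alkbh3* (0.06, adjusted p = 0.374) were not called. *Alkbh2* rested on few reads, with a mean of 156 ± 28 against 148 ± 9.85 and an interval of -0.30 to 0.18, and 29.5% of its exon bases lie opposite *Usp30*.

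Among the other protein hydroxylases, *Jmjd6*, a lysyl hydroxylase of splicing factors, had 1024, 1036, 1044 and 1031 in the floxed TEMs and 907, 872, 899 and 868 in the Cre TEMs (log2 fold change -0.22 ± 0.038 SE, adjusted p = 7.32e-05), with all Cre samples below all floxed samples. *Ogfod1*, a prolyl hydroxylase of a ribosomal protein, was higher (log2 fold change 0.12 ± 0.038 SE, adjusted p = 0.0158), and its call was lost without floxed replicate 4, without Cre replicate 4 and without the length and GC trend. *Jmjd8*, the most abundant of them per length, had 993, 1089, 1051 and 1038 in the floxed TEMs and 894, 981, 1005 and 1004 in the Cre TEMs (log2 fold change -0.10 ± 0.045 SE, adjusted p = 0.0701). Its groups overlapped, and 39.3% of its exon bases lie opposite *Stub1* and a microRNA gene. *Jmjd4* (log2 fold change 0.13 ± 0.060 SE, adjusted p = 0.0929), which acts on the translation release factor, was not called although its groups did not overlap. *Kdm8*, at a mean of 91.1 ± 15.7 against 83.5 ± 16.3, had an interval of -0.45 to 0.19 and was measured too thinly to narrow it.

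Beyond the 39 genes, 16 further dioxygenases passed the filter, of which 2 were higher and 2 lower, beside the backgrounds of 20.8% and 20.3%. Higher were *Phyhd1* (0.54, adjusted p = 0.0215), at 29.4 to 73.9 normalized counts, and *Uty*, the Y-linked relative of *Kdm6a* (0.19, adjusted p = 6.77e-05), and lower were the ribosomal oxygenase genes *Riox1* (-0.25, adjusted p = 0.000278) and *Riox2* (-0.19, adjusted p = 0.00112). *Phyhd1* lost its call without floxed replicate 2, without Cre replicate 4 and in limma without the mean-variance trend. Without Cre replicate 4 the counts were 1 higher and 3 lower, and without floxed replicate 3 they were 3 of each. *Kdm5d*, the Y-linked relative of *Kdm5c*, was not called (0.08, adjusted p = 0.0637). Reads shared between these X and Y copies could have been split, and the values of *Kdm6a*, *Uty*, *Kdm5c* and *Kdm5d* are uncertain to that extent.

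Genes of the enzymes that make and use the cosubstrate were called in both directions. Of 16 genes of 2-oxoglutarate supply tested here 1 was higher and 5 lower, *Phgdh* included, beside the backgrounds of 20.8% and 20.3%. *Psat1*, whose product forms 2-oxoglutarate in serine synthesis, was lower (-0.20, adjusted p = 0.0187), as was the Krebs cycle gene *Idh3a* (-0.19, adjusted p = 0.000107), and *Got1*, an aspartate aminotransferase gene (0.11, adjusted p = 0.00835), was higher. *Psat1* lost its call without floxed replicate 2 or 4, without Cre replicate 3 or 4 and in limma without the mean-variance trend, and the lower calls were 3 in place of 5 both in the latter and without Cre replicate 3. Of 13 genes of 2-oxoglutarate use and of succinate and fumarate 2 were higher and 5 lower, beside the same backgrounds. *Sdhd* (0.13, adjusted p = 0.000482) and *Ogdh* (0.10, adjusted p = 0.00162) were higher, and *Suclg2* (-0.39, adjusted p = 7.17e-06), *Sdhc* (-0.16, adjusted p = 2.09e-05) and *Sucla2* (-0.10, adjusted p = 0.00459) were the lowest. *Suclg2* was lower by 23.7%. These are transcript levels, and the amounts of the metabolites were not measured in these samples.

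Length is set out here because the higher calls moved with it. Over the 13626 tested genes with a length, the median log2 fold change increased from -0.07 in bin 1, the shortest, to 0.08 in bin 5, the longest, when the genes were cut by length into 5 bins of equal size. In bin 5 41.8% of genes were called higher and 13.1% lower. The members were long, with a median exon length of 6590 bases against 4077. Of the 14 members in bin 5, 6 were higher and 1 lower. Of the 14 in bin 4, 7 were higher and 3 lower, where 24.4% of all genes were higher and 17.0% lower. Of the 10 in bins 1 to 3, 0 were higher and 6 lower, where between 8.33% and 17.0% of all genes were higher and between 22.1% and 26.8% lower. Spearman's rho between exon length and log2 fold change was 0.49 over the 38 members and 0.24 over all genes, a description across genes that share the same 8 libraries. In floxed replicate 1 the median gene of bin 5 lay 0.06 on the log2 scale above the other floxed samples, and for that of bin 1 the difference was -0.045. Floxed replicate 1 was the highest floxed sample for 16 of 38 members, against 28.7% of all tested genes. Without it 14 members were higher and 11 lower. The part of length in the higher calls was not tested further.

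**Figure D5:**
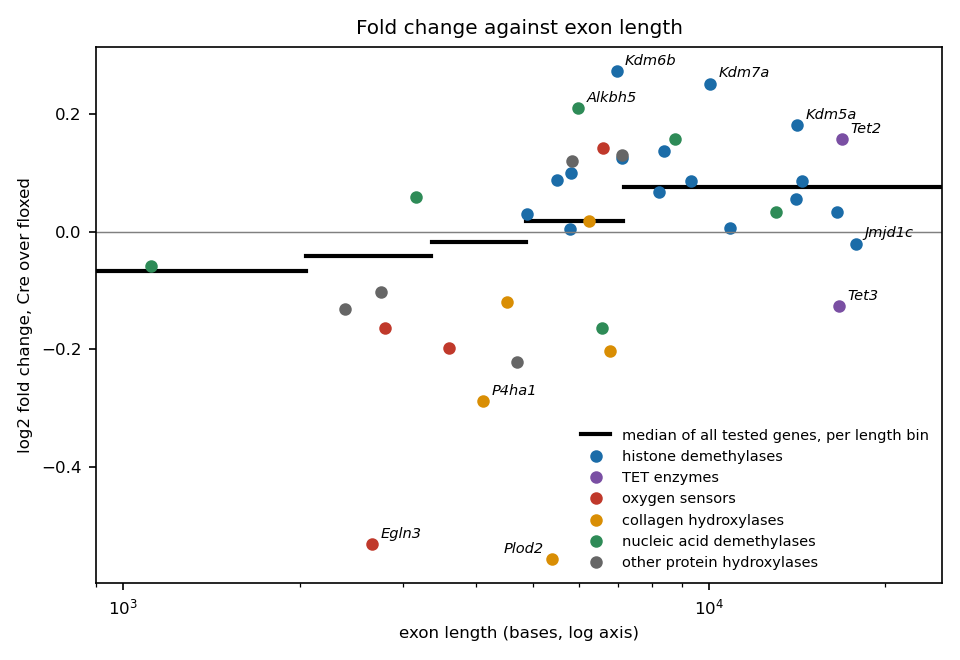
Log2 fold change of the 38 tested members against exon length on a log axis, coloured by role, with black bars at the median of all tested genes in each of the 5 length bins (the outermost bars run on beyond the axis). The bars climb from left to right, the oxygen sensors and collagen hydroxylases that were lower lie well below them, and *Tet2* and *Tet3* stand on opposite sides at almost the same length.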

How the data were processed

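RNA from 8 samples, 4 per genotype as labelled, had been sequenced as single reads with a directional kit. The authors mapped the reads to mm10 with TopHat2, counted them per gene with HTSeq 0.6 and used DESeq2, per the labels and the study's methods, and the strand setting and the annotation are not given in the sources used here. The deposited values are a signal, in which each count was scaled by its sample's size factor, whereas the study speaks of FPKM. Dividing them by the value of 1 read gave whole reads for 100.0% of 144353 values above 0 (within 0.01). The authors' own columns of fold changes, statistics and p-values were not used.

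The 39 members and all gene lists were chosen with earlier results of these data known. The whole table was fitted with limma 3.58.1 in R 4.3.3 (lmFit, eBayes with trend, two-sided) on log2(normalized count + 1) for the 13629 genes averaging 10 or more, without covariates, and a fold change on this scale understates that of low genes. The same samples were fitted on recovered reads with edgeR 4.0.16 (quasi-likelihood, TMM) and DESeq2 1.42.0, which called 5608 and 5066 genes, and with the other alternatives of the closing section. Exon lengths, GC content, overlaps and positions came from GENCODE M21 (18629 of 18635 genes found), and FPKM was computed with them. The labels do not say from how many mice the samples came, so p-values measure the spread between samples. Values in each sample are given for members with an adjusted p under 0.05 whose log2 fold change was at least 0.25 in size and for the most abundant member of each role. For further members they are given as well, chosen after their values were seen. Some genes are not reported here and were left out of the lists. Of each list up to 3 highest and 3 lowest called genes are named, and *P4hb*, *Vegfa*, *Car9*, *Ppib*, *Ldha*, *Dnmt3a*, *Epas1*, *Vhl* and *Kdm1b* were named after their values were seen. On simulated counts limma recovered 196 of 200 changed genes with a mean of at least 100 and called 10 unchanged ones among 13632 tested. These totals are given over all simulated fold sizes together. Recovery of differences as small as the median absolute log2 fold change of the members, 0.126, was not tested. Recovery where as large a share of genes is called as in these data, 41.0%, was not tested either. Members with few reads were measured least precisely, with an SE of 0.154 for *Kdm8* and 0.114 for *Alkbh2*. The parts of counting and of the spread between samples were not separated. Exact permutation p-values over 70 labelings cannot go below 0.0286.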

Additional observations from a re-analysis of the deposited data

Results flagged for a closer look

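In 5 of the 78 groups of 4 samples examined (39 members in each genotype), the outermost sample lay far from the others on Dixon's scale, and chance gives about 1 in 20. *Kdm2b* had 828.0 normalized counts in floxed replicate 3 beside 907 to 917 in the others, and 827.5 in Cre replicate 3 beside 910.4 to 927. *Kdm4b* had 962.4 in Cre replicate 2 beside 1042 to 1053. *Plod3* had 4313 in floxed replicate 2 beside 4127 to 4149, which is on the side away from the Cre samples. *Alkbh8* had 922.2 in floxed replicate 1 beside 875 to 883, on the side towards the Cre samples.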

How the results depend on the processing

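The alternatives covered the pseudocount (0.1), the filter (none, or 50), quantile normalization, scaling to total reads, limma without trend, edgeR, DESeq2, a replicate block, leaving out each sample, and, chosen after seeing the data, removal of the length and GC trend. Of the 23 called members 14 kept direction and call in all 18 (5 higher and 9 lower). The count of called members lay between 17 and 25, and between 19 and 25 on leaving out a sample. Removal of the length and GC trend gave 5 higher members and a median log2 fold change of -0.0204. When an absolute log2 fold change over 1.5 was asked for as well, 0 members were left. The 8 calls of the histone demethylases, all higher, became 4 in limma without trend and 5 with quantile normalization. Without the length and GC trend they became 3 higher and 2 lower. Of the members whose sign reversed, *Kdm2a* had been called and the others had not. Without the length and GC trend these were *Fto* (-0.08), *Kdm2a* (-0.037), *Kdm2b* (-0.077), *Kdm3a* (-0.014), *Kdm3b* (-0.055), *Kdm4a* (-0.022), *Kdm4b* (-0.002), *Kdm5b* (-0.108) and *P4ha2* (-0.014), and with quantile normalization *Kdm4a* (-0.017). On leaving out a sample the values ran from -0.163 to 0.037 for *Alkbh2*, from -0.037 to 0.023 for *Jmjd1c*, from -0.028 to 0.045 for *Kdm2b*, from -0.017 to 0.021 for *Kdm4a* and from -0.24 to 0.004 for *Kdm8*. The causes were not tested. Over all genes the share of higher calls was 50.6%, 56.2% after scaling to total reads and 39.2% without the length and GC trend, and no scaling moved the median of all genes by more than 0.1. Samples with the same number had correlations of deviations of -0.113, 0.185, 0.217 and -0.0883 over 10515 genes. Those between different numbers ran from -0.217 to 0.227, so these values do not settle whether the replicate numbers pair the samples. The replicate block called 23 members, 13 higher and 10 lower, with a median of 0.0336 and no changed call among them.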
